A study of Mus musculus with 24 samples.

Results

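The INK4 and KIP cell cycle inhibitors measured here are 6 genes: Cdkn2a, Cdkn2b, Cdkn2c and Cdkn2d of the INK4 family, and Cdkn1b and Cdkn1c of the KIP family. They were chosen by gene name, which found 9 of the 55681 probes on the array that are not controls, and the list itself was drawn up with earlier results on time in culture and oxygen in these samples in view. Differences of these genes with time in vehicle and with oxygen are therefore described and not tested, while those with NaHS carry the test. The NaHS tests are not independent of that choice. NaHS was compared with the same vehicle arrays, and 24 h against 6 h in NaHS is time in culture too. Messenger RNA was measured on 24 one-colour arrays of primary mouse alveolar type II cells, the surfactant-producing cells of the lung, kept for 3 days at an air-liquid interface until they formed a monolayer. In the NaHS experiment, cells received the fast hydrogen sulfide donor NaHS (100 µM) for 24 h or 6 h, and the matching groups received the DMEM vehicle for 24 h or 6 h. In the GYY4137 experiment, all cells received 100 µM GYY4137, which releases hydrogen sulfide slowly, for 24 h in 85% O2 or in 21% O2. Each of these 6 groups holds 4 arrays, and no group without donor stood beside the GYY4137 arrays used here. The labels give no age, sex or strain, and do not say whether arrays came from separate animals or cultures, so each p-value measures the spread between arrays only, which may be technical.

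A cell commits to divide when cyclin D with Cdk4 or Cdk6, and then cyclin E with Cdk2, phosphorylate the retinoblastoma protein and free E2F factors to switch on replication genes. INK4 proteins bind Cdk4 and Cdk6 and keep cyclin D off them, whereas KIP proteins bind cyclin-Cdk complexes more broadly, those with Cdk2 above all. Cdkn2a gives 2 proteins from separate first exons, p16Ink4a, which inhibits Cdk4 and Cdk6, and p19Arf, which blocks Mdm2 and so stabilises p53. The p53 target Cdkn1a, which encodes p21, is a relative of the KIP genes and is given below as part of the p53 arm.

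The probe sequences decide what the arrays could see. Both Cdkn2a probes are annotated to both RefSeq transcripts of the gene, so neither separates the p16Ink4a from the p19Arf messenger RNA. Probe 1 lies at chr4:88920543-88920602 and probe 2 at chr4:88920405-88920464, both on the minus strand of mm9, with 138 bases between their starts. For Cdkn1b, probe 1 at chr6:134875424-134875483 is annotated to the RefSeq transcript, while probe 2 at chr6:134873606-134873665, both on the plus strand, is annotated only to an Ensembl transcript and cDNA clones and starts 1818 bases upstream of probe 1. The first 30 bases of each of these probes are shown because the paired probes are compared below.
Cdkn2a probe 1: cttctagcgatgctagcgtgtctagcatgt
Cdkn2a probe 2: ggcatgagaaactgagcgaaggcggccgcg
Cdkn1b probe 1: gtgcttaaaaggttgcatactgagccaagt
Cdkn1b probe 2: attagccaagcaaccataagactctagtca
Cdkn2b also has 2 probes, at chr4:88952720-88952779 and chr4:88952276-88952335, and the other genes have 1 each: Cdkn2c at chr4:109333508-109333567, Cdkn2d at chr9:21092934-21092993 and Cdkn1c at chr7:150644753-150644812, all on the minus strand of mm9.

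Cdkn2a and Cdkn2b are neighbours on chromosome 4, and their start regions are shown because these 2 genes moved together in what follows. The RefSeq promoter table (GRCm38.p6, from 250 bases before to 50 bases after each start) held 5 of the 6 genes in 7 windows. Cdkn2a has an upstream start (chr4:89294570-89294869, minus strand), from which the p19Arf transcript begins, and a downstream start (chr4:89282143-89282442, minus strand), from which the p16Ink4a transcript begins. The Cdkn2b start lies at chr4:89310983-89311282 on the minus strand. Capitals mark a match to an E2F-type motif, searched on both strands as TTTCCCGC, TTTCGCGC, TTTGCCGC or TTTGGCGC.
Cdkn2a, upstream start: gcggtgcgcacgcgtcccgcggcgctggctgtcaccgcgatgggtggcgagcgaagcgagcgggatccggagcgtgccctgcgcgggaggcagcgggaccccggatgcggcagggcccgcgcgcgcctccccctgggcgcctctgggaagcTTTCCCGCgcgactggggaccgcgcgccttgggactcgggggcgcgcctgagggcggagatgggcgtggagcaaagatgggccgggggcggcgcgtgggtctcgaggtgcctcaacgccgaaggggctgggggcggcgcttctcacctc
Cdkn2a, downstream start: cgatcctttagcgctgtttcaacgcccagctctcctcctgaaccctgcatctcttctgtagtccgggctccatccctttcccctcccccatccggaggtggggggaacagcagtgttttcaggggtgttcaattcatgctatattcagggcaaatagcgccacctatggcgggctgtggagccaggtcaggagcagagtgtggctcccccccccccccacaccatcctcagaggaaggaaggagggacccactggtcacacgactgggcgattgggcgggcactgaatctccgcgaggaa
Cdkn2b: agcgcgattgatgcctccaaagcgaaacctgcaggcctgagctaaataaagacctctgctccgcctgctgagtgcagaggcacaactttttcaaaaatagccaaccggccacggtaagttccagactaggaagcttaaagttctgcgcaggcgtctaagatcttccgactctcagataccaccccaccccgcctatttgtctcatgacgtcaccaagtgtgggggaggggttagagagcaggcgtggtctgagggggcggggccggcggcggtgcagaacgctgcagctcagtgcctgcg
The upstream Cdkn2a window held TTTCCCGC at position -99 from the start site, and the other 6 windows, those of Cdkn2c, Cdkn2d and Cdkn1b included, held no E2F-type match. Of 32851 mouse windows of the same length, 2.26% held such a match. The motif GGGCGG or its complement occurred in 6 of the 7 windows, against 35.7% of all windows, with 3 matches at the upstream Cdkn2a start, 1 each at the downstream Cdkn2a start, at Cdkn2b and at Cdkn1b, 5 at Cdkn2d and 4 at the first Cdkn2c start. CACGTG occurred in 1 window, the second Cdkn2c start, against 7.15% of all windows, and GTAAACA occurred in 0 of the 7, against 3.65%. These matches describe letters in a window and not sites in use.

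The share of probes with signal well above background ran from 54.8% to 57.2% on the arrays of slide 1 and was higher elsewhere (67.7% to 73.8% for slide 2, 71.4% to 77.1% for slide 3, 69.4% to 77.5% for slide 4), and the number of arrays limits the precision. In the NaHS experiment every group is split evenly over slides 1 and 2. On both slides the 24 h arrays fill one row and the 6 h arrays the other, and NaHS and vehicle keep to separate columns, so position on the slide cannot be told apart from time or treatment. The GYY4137 experiment put 85% O2 on slide 4 alone and 21% O2 on slide 3 alone, so there the slide cannot be told apart from oxygen. Of 11 alveolar type II markers, 8 were above background on all arrays, Sftpc among them, while Slc34a2 was above background on 1 of 24. Also above background were 10 of 12 fibroblast markers on all NaHS experiment arrays (11 of 12 on the GYY4137 arrays) and 7 of 7 smooth muscle and pericyte markers. On all NaHS experiment arrays so were 7 of 8 alveolar type I, 6 of 7 airway epithelium and 7 of 11 macrophage markers. Endothelial (3 of 7) and lymphocyte markers (3 of 6) were above it less often. In bulk RNA, fewer cells of a type and less RNA per cell cannot be told apart. On the array vehicle 6 h replicate 4, both probes of Cdkn2a and of Cdkn2b, Cdkn2d and Cdkn1b probe 1 were lowest in their group. NaHS 6 h replicate 4 was likewise lowest in its group for both probes of Cdkn2a and of Cdkn2b. The differences of Cdkn2a and Cdkn2b with time in vehicle are given with and without vehicle 6 h replicate 4.

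All 9 INK4 and KIP probes were well above background on all 24 arrays, so every member passed the filter on dim probes and none carried a flagged or saturated spot. Levels are log2 of the processed signal over the 75th percentile of the same array, and differences between groups are differences of that log2 value with the standard error of limma. The signal of Cdkn2a probe 1 lay between 735 and 907 in GYY4137 with 85% O2 and between 294 and 556 with 21% O2. In the NaHS experiment it lay between 145 and 350 in NaHS 24 h and between 239 and 301 in vehicle 24 h, and down to 58.5 in NaHS 6 h and 39.8 in vehicle 6 h. In the NaHS experiment both probes of Cdkn2a and both probes of Cdkn2b ordered the group means the same way, vehicle 24 h, NaHS 24 h, NaHS 6 h and vehicle 6 h from high to low, and only the step from NaHS 24 h to NaHS 6 h had no overlap between neighbours. Cdkn2c had the opposite order, vehicle 6 h highest and vehicle 24 h lowest, with every neighbour overlapping the next. Levels of Cdkn2d and of both Cdkn1b probes overlapped between all neighbours of that experiment, as did those of Cdkn1c.

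**Figure D1:**
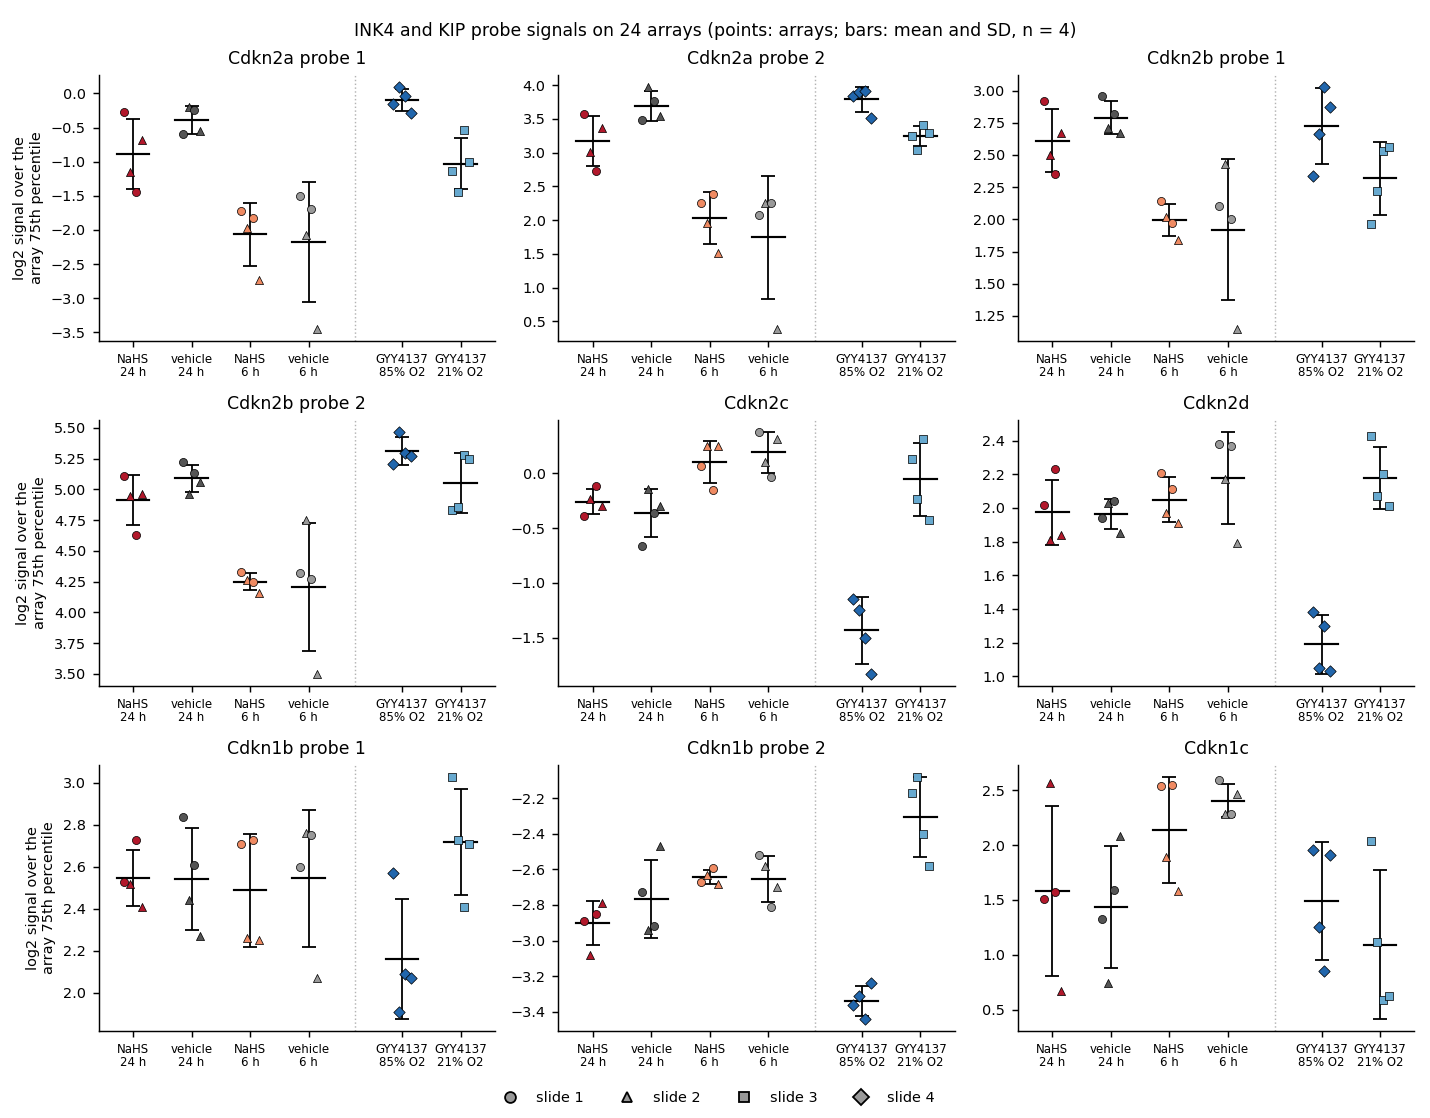
Level of each of the 9 INK4 and KIP probes (log2 processed signal over the array's 75th percentile) on 24 arrays, by group, with mean and SD of 4 arrays and the slide as marker shape. The y axes differ between panels. Cdkn2a and Cdkn2b were higher at 24 h than at 6 h with no overlap between vehicle groups, and Cdkn2c and Cdkn2d were lower in 85% than in 21% O2 with no overlap.

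The first comparison asks what the fast donor NaHS did. No INK4 or KIP probe passed the test between NaHS and vehicle at either time. At 6 h, 0 of 9 were past the adjusted p threshold of 0.05 in limma, against 0% of the 40106 probes tested (270 had an unadjusted p under 0.05), with log2 differences from -0.26 (Cdkn1c) to 0.28 (Cdkn2a probe 2) and a median of 0.014. At 24 h it was again 0 of 9, against 0% of all probes (935 unadjusted), with differences from -0.52 to 0.15 and a median of -0.14, where all probes had a median of 0.0033. Cdkn2a was the member with the largest difference at 24 h. Its probe 2 level was 3.57, 3.01, 2.73 and 3.36 in NaHS 24 h, against 3.48, 3.97, 3.76 and 3.54 in vehicle 24 h. The groups overlapped, with 3 of the 4 NaHS arrays below the lowest vehicle array, and the difference was -0.52 ± 0.37 (95% interval -1.31 to 0.27, limma adjusted p = 0.99983). Probe 1 gave -0.49 ± 0.39. With the slide as a block the limma adjusted p was 0.71 for probe 2 and 0.724 for probe 1. With an interval this wide a difference was not detectable, which does not show that there was none. For 7 of 9 probes at each time the 95% interval stayed within a factor of 2 either way, and the exceptions at 24 h were both Cdkn2a probes. The NaHS effect at 24 h minus that at 6 h was past the threshold for 0 of 9 probes, against 0% of all probes (490 unadjusted), and ranged from -0.80 (Cdkn2a probe 2, interval -1.91 to 0.32) to 0.41 (Cdkn1c).

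The second comparison sets 24 h against 6 h. In vehicle, Cdkn2a and its neighbour Cdkn2b were higher at 24 h, Cdkn2c and Cdkn1c were lower, and Cdkn2d and Cdkn1b moved little. Cdkn2a, the source of p16Ink4a and p19Arf, had probe 1 levels of -0.59, -0.20, -0.24 and -0.55 in vehicle 24 h, against -1.51, -2.07, -1.69 and -3.45 in vehicle 6 h. Every 24 h array lay above every 6 h array, and the difference of 1.78 ± 0.39 is a 3.44-fold higher signal. Probe 2 read 3.48, 3.97, 3.76 and 3.54 in vehicle 24 h, against 2.08, 2.26, 2.26 and 0.39 in vehicle 6 h, a difference of 1.94 ± 0.37 or 3.83-fold. The lowest value of each probe in vehicle 6 h belongs to replicate 4. Without that array the differences were 1.36 for probe 1 and 1.48 for probe 2.

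Both Cdkn2a probes were past the threshold in vehicle, 2 of 9 member probes, where 0.92% of all 40106 probes were past it (0.546% higher and 0.374% lower). That count is a description, since the genes were chosen with this comparison in view, and it sat near the threshold. It was 0 in a fit of only the vehicle groups, 0 within slide 1 or slide 2 alone, with median centring or with no filter on dim probes, and 0 without vehicle 24 h replicate 1, 2, 3 or 4, vehicle 6 h replicate 1 or 3 or NaHS 6 h replicate 1 or 2. It was 5 with the replicate number as a block and 5 with the slide as a block, which added both Cdkn2b probes and Cdkn2c. With 1 array left out, Cdkn2a probe 1 was past the threshold in 0 of 16 fits and probe 2 in 8 of 16. The direction held within each slide, with 1.18 on slide 1 and 2.38 on slide 2 for probe 1, and 1.45 and 2.43 for probe 2.

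Cdkn2b encodes p15Ink4b, the INK4 protein known as a target of TGF-beta in epithelial cells. Its probe 2 read 5.22, 4.96, 5.13 and 5.06 in vehicle 24 h, against 4.32, 4.75, 4.27 and 3.50 in vehicle 6 h. The groups did not overlap, and the difference was 0.89 ± 0.20 (1.85-fold), with 0.89 within slide 1 and 0.89 within slide 2. Probe 1 gave 0.87 ± 0.22, also without overlap. Without vehicle 6 h replicate 4 these differences were 0.65 and 0.61, the lowest of the 16 values with 1 array left out.

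Cdkn2c, which encodes p18Ink4c, went the other way. It read -0.66, -0.14, -0.36 and -0.30 in vehicle 24 h, against 0.38, 0.10, -0.03 and 0.31 in vehicle 6 h. No array of vehicle 24 h reached the lowest of vehicle 6 h, and the difference was -0.55 ± 0.14 (1.47-fold lower), with -0.68 on slide 1 and -0.43 on slide 2. Cdkn2d, which encodes p19Ink4d, differed by -0.21 ± 0.14 with overlap. Of the KIP genes, the p27 gene Cdkn1b differed by -0.0052 ± 0.18 on probe 1 and -0.11 ± 0.11 on probe 2, both with overlap. With 1 array left out, Cdkn2d ranged from -0.34 to -0.15 and Cdkn1b probe 1 from -0.16 to 0.084. Cdkn1c, the imprinted p57 gene, read 1.33, 0.74, 1.59 and 2.08 in vehicle 24 h, against 2.59, 2.28, 2.28 and 2.47 in vehicle 6 h. Its vehicle groups did not overlap, yet the 24 h arrays spread widely (SD 0.56 against 0.16), and the difference of -0.97 ± 0.37 was not past the threshold in this fit or in any of 28 alternatives. In all, 6 of 9 member probes had no overlap between the vehicle groups, against 7.15% of all probes.

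In NaHS the same comparison gave smaller differences in the same directions for Cdkn2a, Cdkn2b, Cdkn2c, Cdkn2d and Cdkn1c, but not for Cdkn1b. Cdkn2a probe 2 read 3.57, 3.01, 2.73 and 3.36 in NaHS 24 h, against 2.26, 1.96, 2.38 and 1.51 in NaHS 6 h, without overlap. The difference was 1.14 ± 0.37 (limma adjusted p = 0.348), and probe 1 gave 1.18 ± 0.39 (limma adjusted p = 0.362). Cdkn2b gave 0.66 ± 0.20 on probe 2 (limma adjusted p = 0.308) and 0.62 ± 0.22 on probe 1. Cdkn2c differed by -0.37 ± 0.14, Cdkn2d by -0.075 ± 0.14 and Cdkn1c by -0.56 ± 0.37, all with overlap. Cdkn1b probe 2 differed by -0.26 ± 0.11 without overlap, more than the -0.11 in vehicle. Its probe 1 differed by 0.06 ± 0.18 with overlap, where vehicle had -0.0052. None of the 9 probes passed, against 0.0249% of all probes, and 5 of 9 had no overlap, against 6.24%. Whether the time difference was smaller in NaHS than in vehicle is the test of the NaHS effect at 24 h minus that at 6 h, which no member passed.

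**Figure D2:**
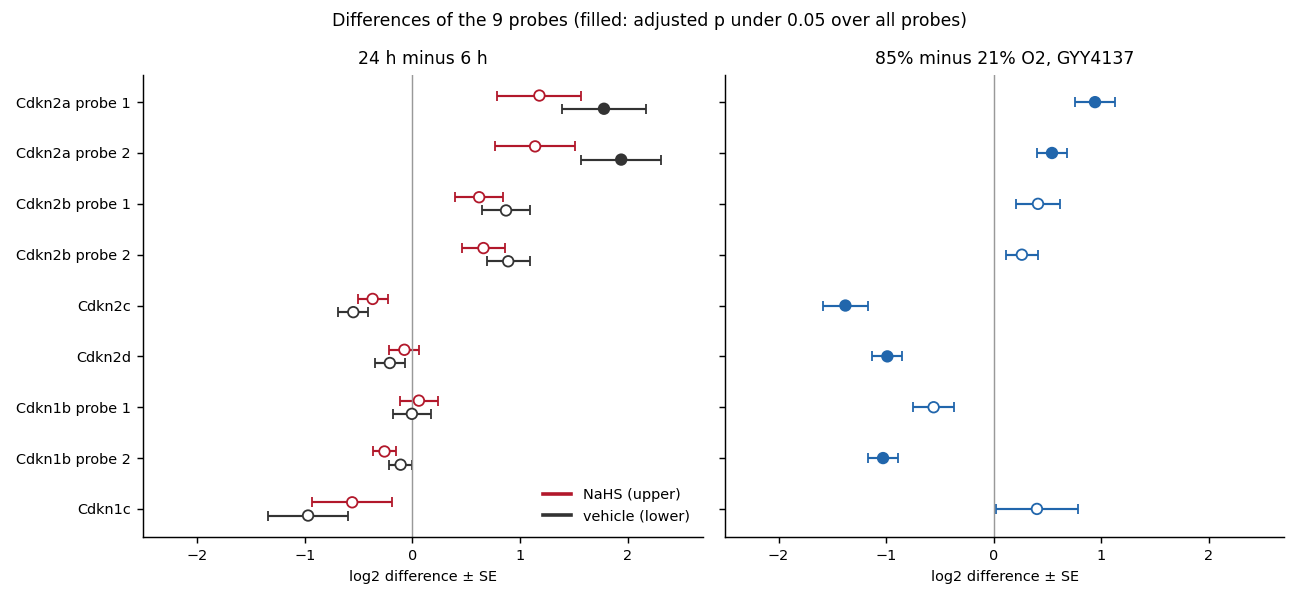
Log2 difference ± SE of each of the 9 probes, with 24 h minus 6 h on the left (NaHS above, vehicle below) and 85% minus 21% O2 with GYY4137 on the right. Filled points are past the adjusted p threshold over all probes. Cdkn2a is filled in vehicle and in 85% O2, and Cdkn2c, Cdkn2d and Cdkn1b probe 2 are filled below 0 in 85% O2.

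The third comparison sets 85% against 21% O2 in the presence of GYY4137. Cdkn2a was again higher, while Cdkn2c, Cdkn2d and 1 of 2 Cdkn1b probes were lower. Cdkn2c read -1.15, -1.25, -1.50 and -1.83 in 85% O2, against 0.13, -0.23, 0.31 and -0.43 in 21% O2. All 85% O2 arrays lay below all 21% O2 arrays, a difference of -1.38 ± 0.21 (2.60-fold lower) and the largest among the members. Cdkn2d read 1.38, 1.05, 1.30 and 1.03 in 85% O2, against 2.43, 2.07, 2.20 and 2.01 in 21% O2. It too had no overlap, with -0.99 ± 0.14 (1.98-fold lower).

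Cdkn1b depended on the probe. Probe 2 read -3.36, -3.31, -3.44 and -3.24 in 85% O2, against -2.17, -2.08, -2.40 and -2.58 in 21% O2, with no overlap and a difference of -1.03 ± 0.14 (2.04-fold lower). This probe is dim, with signals between 79.9 and 115 in 85% O2 and between 125 and 189 in 21% O2. With normexp background correction its difference was -0.69. Probe 1 read 2.57, 1.91, 2.09 and 2.07 in 85% O2, against 3.03, 2.73, 2.41 and 2.71 in 21% O2. Those groups overlapped, and the difference of -0.56 ± 0.19 was not past the threshold. It was in 4 of 16 alternatives, the replicate number as a block (-0.56), normexp, median centring (-0.70) and leaving out 85% O2 replicate 1 (-0.70).

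Cdkn2a probe 1 read -0.16, 0.099, -0.045 and -0.28 in 85% O2, against -1.13, -1.44, -0.54 and -1.01 in 21% O2. The groups did not overlap and differed by 0.94 ± 0.19 (1.91-fold). Probe 2 read 3.83, 3.90, 3.91 and 3.51 in 85% O2, against 3.24, 3.04, 3.41 and 3.29 in 21% O2, again without overlap, and differed by 0.54 ± 0.14 (1.45-fold). Probe 2 was past the threshold in 7 of 16 alternatives: the call was lost in 6 of the 8 fits with 1 array left out, with the replicate number as a block (0.54), with median centring (0.39) and with no filter on dim probes (0.54), and probe 1 was not without 85% O2 replicate 3. Cdkn2b was not past it on either probe (0.41 ± 0.20 and 0.26 ± 0.15, both with overlap), nor was Cdkn1c, whose arrays ran from 0.85 to 1.96 in 85% O2 and from 0.59 to 2.04 in 21% O2. In all, 2 of 9 probes were past the threshold as higher, where 10.3% of all 41604 probes were, and 3 of 9 as lower, where 5.9% were (16.2% in either direction). Between 85% and 21% O2, 5 of 9 probes had no overlap, against 23.4% of all probes. The arrays cannot tell oxygen from slide here. Of the calls over all probes, 63.5% were higher, but 35.4% were with each array centred on its median, a scaling under which the median difference of all probes was -0.081 in place of 0.063. Under that scaling Cdkn2a probe 2 was not past the threshold and Cdkn1b probe 1 was.

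The paired probes of a gene were compared by the deviation of each array from its experiment's mean. Cdkn2a's probes deviated together, with a Pearson r of 0.98 over the 16 arrays of the NaHS experiment and 0.96 over the 8 of the GYY4137 experiment, and 0.94 over the 16 once group means were taken out. Cdkn2b's gave 0.99, 0.78 and 0.97. Those of Cdkn1b gave -0.11, 0.77 and -0.084. Arrays of 1 experiment share their slides and scaling, so these values describe the probes and are not tests. Slide means were left in, and slide 2 minus slide 1 was -0.32 ± 0.092 for Cdkn1b probe 1 and 0.013 ± 0.078 for probe 2. The part of the slide in these values was not tested. Cdkn1b also varied little between groups of the NaHS experiment, with means of 2.49 to 2.55 on probe 1 and -2.9 to -2.64 on the dim probe 2. The low r there therefore cannot tell whether the 2 probes differ in what they read. Cdkn1b is given by probe throughout.

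**Figure D3:**
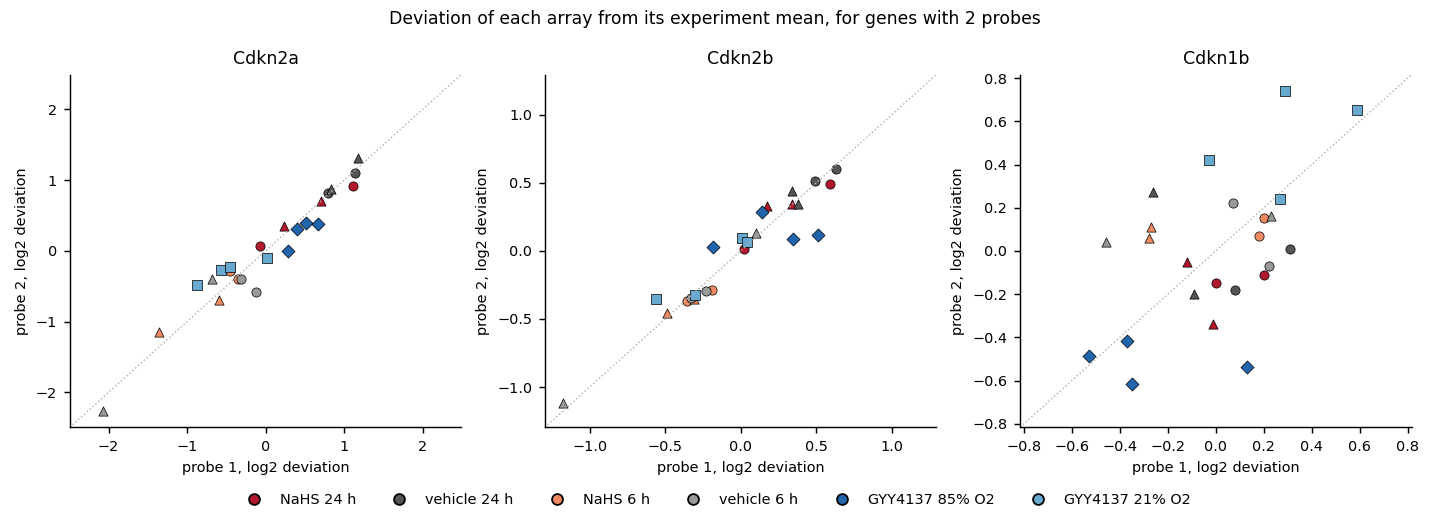
Deviation of each array from its experiment mean (log2) on probe 1 (x) and probe 2 (y) for the 3 genes with 2 probes. Circles, triangles, squares and diamonds are slides 1, 2, 3 and 4, and the dotted line marks equal deviation. Over the NaHS experiment points of Cdkn2a and Cdkn2b follow the line (r of 0.98 and 0.99) and those of Cdkn1b do not there (r of -0.11), while over the GYY4137 experiment r is 0.96 for Cdkn2a, 0.78 for Cdkn2b and 0.77 for Cdkn1b.

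Among the members themselves, with the slide means taken out, Cdkn2a and Cdkn2b had a Pearson r of 0.95 over the 16 arrays of the NaHS experiment. Cdkn2c ran against both, with r of -0.82 with Cdkn2a and -0.84 with Cdkn2b, and Cdkn1c did so less closely (-0.62 and -0.56). Cdkn2c and Cdkn2d had r of 0.62, and Cdkn1b probe 1 lay within 0.43 of 0 with every other member. In these correlations a gene with 2 probes was read from that with the higher mean, probe 2 for Cdkn2a and Cdkn2b. The genes most like each member over the same arrays were ranked among about 20340 probes. For Cdkn2c they were Cenpi (r of 0.962), Cenpq, Ccnb1, Mad2l1 and H4c11, which encode a pair of centromere proteins, cyclin B1, a spindle checkpoint protein and a histone H4. For Cdkn2a they were Ass1 (0.978), Gria3, Fbln2, Yars and Bmp1, and for Cdkn2b Lrrfip1 (0.980), Sppl3, Bmp1, Tmem59 and Hs6st2, so that Bmp1, a procollagen protease, stood in both lists. For Cdkn1c they were Kcnq1 (0.929), Sema6a, Anxa10, Dut and Pgm2l1, and Kcnq1 is a neighbour of Cdkn1c in the same imprinted domain. Cdkn2d was most like Ccdc32 (0.914), Psip1, Tor1aip1, Msx1 and Hspa4, and Cdkn1b probe 1 most like Smarce1 (0.950), Smurf2, Cdc42ep4, Spr and Pank3. Differences between the 6 h and 24 h groups make up part of each of these values.

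Genes of DNA replication and mitosis, the output of the pathway that these inhibitors restrain, were lower at 24 h and in 85% O2. The lists in this and later paragraphs were drawn up with earlier results of these data known. Their counts and p-values for time in vehicle and for oxygen are therefore descriptions. Over all probes, 0.374% were past the threshold as lower and 0.546% as higher in vehicle, and 5.9% and 10.3% in 85% O2. In vehicle, 5 of 19 measured DNA replication and mitosis genes fell at 24 h, Mcm5 (-0.88 ± 0.17, limma adjusted p = 0.0316) and Mcm4 of the replicative helicase, Birc5 (-0.81 ± 0.16), Aurka and Cdk1. None of the 19 had a positive difference, and their median was -0.66 against 0.013 for all probes. The number past the threshold was 13 with the replicate block, and 0 in a fit of the vehicle groups alone, with median centring, with no filter on dim probes or within slide 1 or slide 2, and 0 to 8 with 1 array left out. In 85% against 21% O2, 18 of the 19 fell, with a median of -1.96 against 0.063 for all probes, led by Cdk1 (-2.37 ± 0.20, limma adjusted p = 0.0014), Ccna2 (-2.81 ± 0.24) and Ccnb2 (-2.28 ± 0.21), the partners that drive S phase and mitosis. With 1 array left out, 17 or 18 remained past the threshold. No gene of the list passed for NaHS against vehicle at either time. At 24 h all 19 had a positive difference, with a median of 0.23 against 0.0033 for all probes, and so had the NaHS effect at 24 h minus that at 6 h (median 0.30), whereas at 6 h 2 of 19 were positive. The reference at 24 h is the same vehicle 24 h arrays on which these genes were low against 6 h. These counts are therefore descriptions too and do not show an effect of NaHS.

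Part of the p53 arm, to which p19Arf feeds, was higher in both comparisons. In 85% O2, 5 of 10 measured genes rose and 0 fell: Cdkn1a averaged 5.97 in 85% O2 and 3.94 in 21% O2 (2.03 ± 0.17, limma adjusted p = 0.0014), and Mdm2 (1.81 ± 0.15), Ccng1 (1.34 ± 0.13), Trp53inp1 and Pmaip1 rose with it. With the replicate block 2 of the 10 also fell, and with median centring or normexp 1 did. In vehicle, Cdkn1a averaged 4.66 at 24 h and 3.92 at 6 h (0.75 ± 0.12, limma adjusted p = 0.0222), and Ccng1 (0.52 ± 0.10) and Trp53inp1 (0.67 ± 0.14) rose too, 3 of 10. These 3 were 0 in a fit of the vehicle groups alone, with median centring and in some fits with 1 array left out. In NaHS, Cdkn1a differed by 0.59 ± 0.12 between 24 h and 6 h (limma adjusted p = 0.126).

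Upstream and target genes of the INK4 block were split. In 85% O2, 5 of 13 pocket protein and E2F genes fell, the repressors E2f8 (-2.24 ± 0.26, limma adjusted p = 0.00283) and E2f7, the activators E2f1 and E2f2, and Rbl1 (-1.24 ± 0.16), while Rb1 (0.86 ± 0.12), Rbl2 and Tfdp2 rose. With 1 array left out 3 to 5 were lower and 1 to 3 higher, and with median centring 1 was higher. Among 11 G1 cyclins and kinases, Ccne1 (-1.36 ± 0.18), Ccnd3 (-0.64 ± 0.15) and Ccnh fell and Mnat1 rose, with 2 lower under the replicate block and 1 to 3 with 1 array left out. Of 12 genes that act on p27, Skp2 (-1.21 ± 0.14, limma adjusted p = 0.00277) and Cks1b, which mark p27 for degradation, fell, and the forkhead factor Foxo3 (1.61 ± 0.24) and Rnf123, a ligase for p27 in G1, rose. There the replicate block gave 3 lower, normexp gave 4 higher, and leaving out 1 array gave 1 or 2 lower. In vehicle, 0 genes in these lists passed at 24 h against 6 h by limma. The nearest were Rbl1 (-0.63 ± 0.14, limma adjusted p = 0.052), the cyclin gene Ccnd2 (0.81 ± 0.18, limma adjusted p = 0.0582) and Foxo3 (-0.54 ± 0.13, limma adjusted p = 0.0713). With the replicate number as a block, 1 G1 gene was higher, and 2 pocket protein and E2F genes and 1 of the p27 genes were lower.

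Few known regulators of the INK4 locus passed. In vehicle at 24 h against 6 h, 0 of 18 Polycomb and other regulators and 0 of 12 TGF-beta and MYC genes passed limma's threshold, with Phc1 (0.27 ± 0.093, adjusted p = 0.217) and Smad3 (0.37 ± 0.12, adjusted p = 0.205) nearest. In 85% O2, Kmt2a (0.67 ± 0.14) and the Polycomb protein gene Cbx7 (0.84 ± 0.20) rose and Cbx8 (-0.48 ± 0.13) fell among the 18, and Smad3 (0.42 ± 0.11) rose among the 12. These 3 of 18 and 1 of 12 stand beside 16.2% of all probes. With 1 array left out, 0 to 2 of the 18 were higher and 0 or 1 lower, and Smad3 passed in none of the 8 fits. With the replicate block, 1 of the 18 was higher and 1 lower in 85% O2, 0 of the 12 passed, and in vehicle 1 of the 18 was lower. Mtap, the gene next to Cdkn2a, did not pass in either comparison (0.58 ± 0.20 in vehicle, limma adjusted p = 0.231, and 0.22 ± 0.19 in 85% O2, limma adjusted p = 0.45). Of 15 imprinted genes set beside Cdkn1c, 0 passed in vehicle, with Phlda2 nearest (-1.08 ± 0.34, limma adjusted p = 0.175). In 85% O2, H19 (-2.49 ± 0.26), Peg3, Grb10 and Plagl1 fell and Mest (1.59 ± 0.27) and Slc22a18 rose. The replicate block gave 3 lower, no filter on dim probes 1 lower, and leaving out 1 array 1 to 3 lower and 1 or 2 higher.

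Of 22 measured senescence-associated genes, Glb1 (0.55 ± 0.095, limma adjusted p = 0.0239), the lysosomal beta-galactosidase, rose in vehicle at 24 h, and Hmgb1 (-0.64 ± 0.10) and the protease gene Mmp3 (-2.22 ± 0.42) fell. None of the 3 passed with median centring, within 1 slide or in a fit of the vehicle groups alone, and with 1 array left out 0 or 1 was higher and 0 to 2 lower. In 85% O2, Hmgb1 (-2.20 ± 0.40, limma adjusted p = 0.0113) fell, and Hmga2 (0.62 ± 0.13), Gdf15 (1.03 ± 0.23) and Mmp12 (0.74 ± 0.19) rose, 4 of 22 beside 16.2% of all probes. The 3 higher became 1 with median centring and 0 to 3 with 1 array left out.

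**Figure D4:**
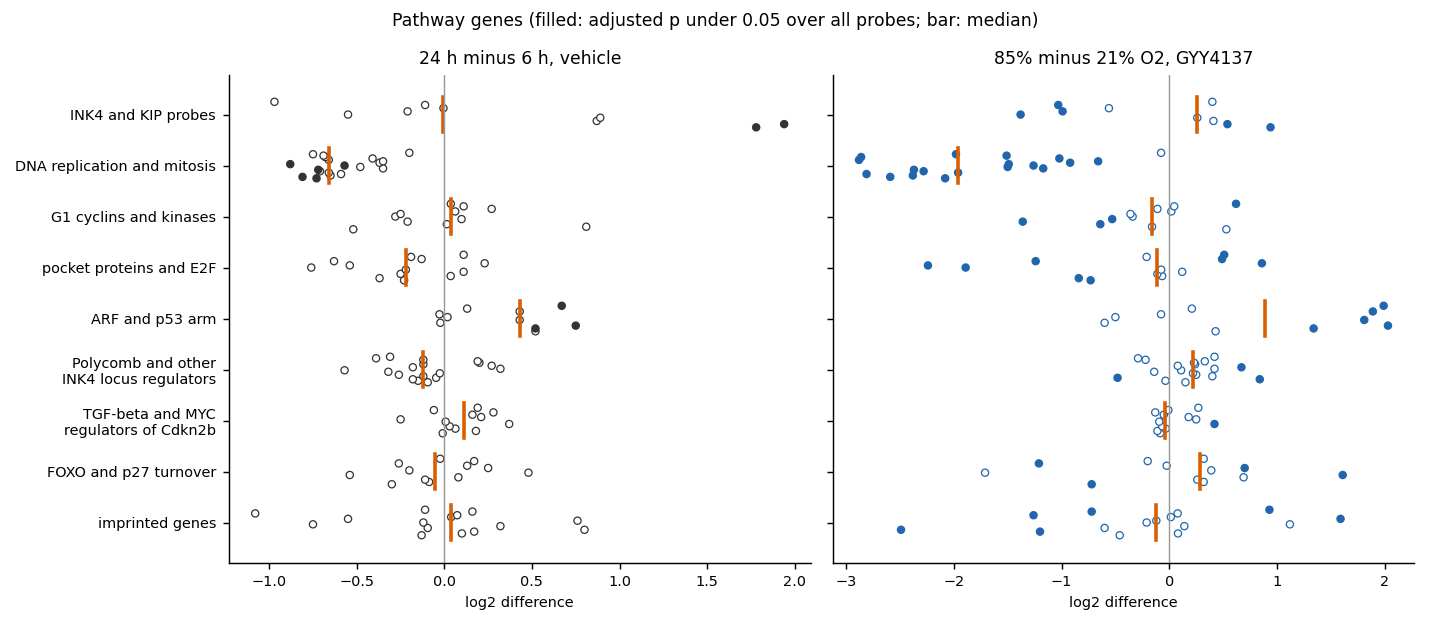
Log2 difference of each measured gene of the pathway lists, with the 9 INK4 and KIP probes in the top row, for 24 h minus 6 h in vehicle (left) and 85% minus 21% O2 with GYY4137 (right). Filled points are past the adjusted p threshold over all probes and orange bars are medians, which for DNA replication and mitosis lie at -0.66 and -1.96.

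Cell type markers shifted between the same groups, in vehicle those of alveolar type II cells among them. Of 8 marker lists, 3 had no overlap of their mean level between the vehicle groups. The 7 smooth muscle and pericyte markers averaged 4.45 to 4.66 in vehicle 24 h and 2.98 to 4.10 in vehicle 6 h, the 11 alveolar type II markers -1.02 to -0.14 and 0.059 to 0.98, and the 7 airway epithelium markers -1.73 to -0.98 and -0.32 to 1.12. Past the threshold were Notch3 (1.24 ± 0.16, limma adjusted p = 0.013) of the first list, Sftpa1 (-3.14 ± 0.51) of the second, Scgb3a1 (-3.72 ± 0.68) of the third and the fibroblast marker Thy1 (1.16 ± 0.24). The 12 fibroblast markers together averaged 3.26 to 4.06 in vehicle 24 h and 3.69 to 3.96 in vehicle 6 h.

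Between 85% and 21% O2, 3 lists had no overlap, the airway list again among them, all higher in 85% O2. Airway epithelium markers (6 of 7 above background on all GYY4137 arrays) averaged -0.98 to -0.42 in 85% O2 and -1.75 to -1.08 in 21% O2. Endothelial markers (5 of 7) averaged -2.94 to -2.35 in 85% O2 and -3.31 to -2.96 in 21% O2, and lymphocyte markers (3 of 6) -2.33 to -2.22 in 85% O2 and -2.81 to -2.5 in 21% O2. The other lists overlapped, with 4.06 to 4.49 in 85% O2 and 4.32 to 4.78 in 21% O2 for smooth muscle, -0.86 to -0.0098 and -1.01 to 0.35 for type II, and 3.08 to 3.98 and 3.59 to 4.16 for fibroblast markers. Foxj1 (1.46 ± 0.34, limma adjusted p = 0.0262) and Tppp3 of the airway list, Tek of the endothelial list and Notch3 (1.36 ± 0.24) rose, and Lamp3 (-1.04 ± 0.14) of the type II list, Thy1 (-1.05 ± 0.16) and Des (-1.29 ± 0.24) fell. The part of these shifts in the differences of the INK4 and KIP genes was not tested.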

How the data were processed

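RNA was labelled with Cy3 and hybridised to one-colour Agilent arrays, 1 sample per array, per the labels' protocols. The deposited scanner files hold spot intensity: per the file headers and the submitters' processing notes, Agilent Feature Extraction 10.7.3.1 made the processed signal used here, with background subtracted and no scaling between arrays. A deposited table of the authors' log2 values, with equal medians within each experiment (5.953 or 5.954, and 7.081) and of otherwise unstated normalization, served as an alternative, and correlated with the scanner log2 signal at 0.998 or more. Its probe matches covered 50638 of 55681 probes.

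Each array's log2 processed signal was taken relative to its 75th percentile. Probes well above background on at least 4 arrays of an experiment were tested with limma 3.58.1 (R 4.3.3) on group means, each experiment fitted on its own, with Benjamini-Hochberg adjustment over all probes and a threshold of 0.05. Each INK4 and KIP probe was kept separate. In the pathway lists a gene was read from its probe with the highest mean, and per list and comparison up to 3 genes past the threshold with the smallest p were named (the nearest 1 where none passed). Other genes of a list, such as Mcm4 or E2f7, were named after their values were seen. Members, lists and named genes were chosen with earlier results of these data known. Correlations over the 16 arrays among members and with other genes were taken after subtracting slide means, and those between paired probes were not. Scripts were tested on simulated data with noise drawn independently for each array and no slide difference. For 24 h against 6 h in vehicle, 33 of 100 simulated log2 changes of 1 and 68 of 100 of 2 were past the threshold. For 85% against 21% O2 these were 41 and 83, so many changes of 2-fold would be missed.

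Arrays with the same replicate number deviated together (r of 0.36 to 0.77 over 24 pairs in the NaHS experiment, where they share a slide, and 0.17 to 0.33 over 4 pairs in the other), so the replicate number was also fitted as a block. In the NaHS experiment this may be the slide alone: arrays of different numbers on 1 slide gave 0.09 to 0.67, and same-numbered arrays -0.29 to 0.44 once slide and group means were removed. In the GYY4137 experiment arrays of different numbers gave -0.27 to 0.29, which overlaps the range of the same-numbered arrays. Alternatives were normexp background correction, quantile normalization, median centring, the deposited table, other filters, slide or replicate blocks, single slides, 1 probe per gene, fits of only the groups compared and leaving out each array. Probe positions are those of the array files (mm9).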

Additional observations from a re-analysis of the deposited data

Results flagged for a closer look

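Cdkn2a probe 2 read 0.39 on the array labelled vehicle 6 h replicate 4, against 2.08 to 2.26 on the other arrays of that group, and this gap took up 0.904 of the group's range, beyond Dixon's 95% limit for 4 values. It was the only one of 54 sets of 4 values (9 probes in 6 groups) beyond that limit, and chance alone puts about 1 in 20 beyond it. The same array also had the lowest level of its group for Cdkn2a probe 1 (-3.45) and for both Cdkn2b probes (1.15 and 3.50). It was lowest for Cdkn2d (1.79) and Cdkn1b probe 1 (2.07) too, and none of these gaps was beyond that limit. The difference of Cdkn2a probe 2 between vehicle 24 h and vehicle 6 h was 1.94 with this array and 1.48 without it. The array NaHS 6 h replicate 4 was also lowest in its group for Cdkn2a probes 1 and 2 (-2.74 and 1.51) and Cdkn2b probes 1 and 2 (1.84 and 4.16), within that limit.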

How the results depend on the processing

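For NaHS against vehicle, and for the difference between its effects at 24 h and 6 h, 0 of all probes passed under every alternative run, as did 0 INK4 and KIP probes for 24 h against 6 h in NaHS. The 2 INK4 and KIP probes past the threshold for 24 h against 6 h in vehicle became 5 with normexp, with probes above background on every array, with the slide block and with the replicate block. They became 1 with quantile normalization, the deposited table or 1 probe per gene, 0 with median centring, no filter, only the groups compared, slide 1 or slide 2, and 0 to 3 with 1 array left out. All probes past it in that comparison numbered 369, and 671 with normexp, 230 with quantile normalization, 1 with median centring, 234 in the deposited table, 111 with no filter and 830 with probes above background on every array. They numbered 1082 with the slide block, 1266 with the replicate block, 0 within slide 1, 1 within slide 2, 0 with only the groups compared, 203 with 1 probe per gene, and 9 to 455 with 1 array left out. In NaHS the 10 probes became 62 with normexp, 2 with quantile normalization, 0 with median centring, 2 in the deposited table, 0 with no filter and 85 with probes above background on every array. They became 70 with the slide block, 44 with the replicate block, 0 within slide 1 or slide 2, 0 with only the groups compared, and 0 to 15 with 1 array left out. Fits within a slide have fewer arrays, and the 75th percentile lay 4.14 to 4.28 above the median on slide 1 and 3.25 to 3.38 above it on slide 2, which median centring carries into the spread. Slide 2 minus slide 1 was past the threshold for 48% of all probes, Cdkn2d and Cdkn1b probe 1 among them. The main fit leaves that difference in the spread between arrays. With the slide block the standard error of Cdkn2d for time in vehicle was 0.10 in place of 0.14. The cause of the other changes was not tested. For 85% against 21% O2, the 5 INK4 and KIP probes became 3 with 1 probe per gene, which keeps fewer probes, and 3 to 5 with 1 array left out (3 without 85% O2 replicate 3). All probes past the threshold numbered 6721, and 2709 to 7927 with 1 array left out, the fewest without 85% O2 replicate 3. The replicate block kept that INK4 and KIP count at 5 and, beside the changes given in the report, changed no other call of these probes.

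Differences that changed sign were small and none passed the threshold. For Cdkn1b probe 1 they were -0.091 for time in NaHS, -0.14 for the difference of effects, -0.093 for NaHS at 24 h and 0.046 at 6 h within slide 1, and -3.6e-05 (quantile) and -0.00015 (deposited table) for NaHS at 24 h. For Cdkn1b probe 2 at 6 h they were -0.061 with normexp, -0.0095 with median centring and -0.012 within slide 2. Within slide 1, Cdkn1c gave -0.029 for the difference of effects and 0.11 at 6 h, and Cdkn2a probe 1 gave -0.18 at 6 h. Within slide 2, Cdkn2c gave -0.091 for the difference of effects, -0.051 at 24 h and 0.041 at 6 h, and Cdkn2d gave -0.072 and, at 24 h, -0.11. Cdkn2d at 24 h gave -0.016 with quantile normalization and -0.016 in the deposited table. With 1 array left out, Cdkn1b probe 1 ranged from -0.02 to 0.14 for time in NaHS, -0.024 to 0.22 for the difference of effects, -0.08 to 0.11 at 24 h and -0.21 to 0.023 at 6 h. Likewise, at 6 h the ranges were -0.038 to 0.058 for Cdkn1b probe 2, -0.31 to 0.34 and -0.17 to 0.45 for Cdkn2a probes 1 and 2, and -0.19 to 0.24 and -0.19 to 0.23 for Cdkn2b probes 1 and 2. At 24 h they were -0.19 to 0.45 for Cdkn1c and -0.072 to 0.067 for Cdkn2d, and for the difference of effects -0.42 to 0.0069 and -0.41 to 0.01 for Cdkn2b probes 1 and 2. The cause was not tested, beyond there being fewer arrays within a slide or with 1 left out.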
